A study of Mus musculus with 6 samples.

Results

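The miR-221 and miR-222 cluster was followed through 3 rows of the deposited miRNA table, mmu-miR-221-3p, mmu-miR-222-3p and mmu-miR-221-5p, which were chosen by name out of 1976 rows. The table was made from small RNA libraries of extracellular vesicles, which the labels call exosomes, released by primary hepatocytes of wild-type C57BL/6J mice. Vesicles of 3 libraries came from hepatocytes given 600 µM palmitic acid, a saturated fatty acid used to load liver cells with lipid, and vesicles of the other 3 from control hepatocytes given 0 µM. Genotype, cell type and the kit used for the libraries were the same in both groups. The duration of treatment is not in the labels. Nor do they say if each library had its own mouse or dish, and the p-values here may therefore reflect technical spread alone. The title of the series concerns fatty liver and endothelial dysfunction, and the comparison asks what lipid loading of hepatocytes changes in the miRNAs their vesicles carry.

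A miRNA gene is transcribed as a hairpin, from which 2 short arms are cut. The arm that is loaded into Argonaute, the guide, pairs with messenger RNAs mainly through its seed, bases 2 to 8, and lowers their translation or stability, whereas the other arm is mostly degraded. miR-221-3p and miR-222-3p are the guides of neighbouring hairpins and are known to repress Cdkn1b, an inhibitor of the cell cycle, and Kit, the receptor of stem cell factor. In liver they are known as miRNAs of proliferating and fibrotic tissue, and in endothelial cells as regulators of migration and vessel growth.

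The mature sequences (RefSeq, GRCm38.p6) are shown because the seed joins both guides and separates them from miR-221-5p. Capitals mark bases 2 to 8.
mmu-miR-221-3p: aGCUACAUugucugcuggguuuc
mmu-miR-222-3p: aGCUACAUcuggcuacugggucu
mmu-miR-1928: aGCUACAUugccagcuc
mmu-miR-221-5p: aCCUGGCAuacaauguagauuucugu

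The guides miR-221-3p and miR-222-3p share their leading 8 bases and are identical at 11 of 23 positions compared without gaps, so reads of full length can be told apart. A search of the 1679 mature miRNAs in the sequence table found the same seed in 3, both guides and miR-1928, a miRNA encoded on chromosome 1. Both hairpins of the cluster lie on the minus strand of chromosome X, Mir222 at chrX:19146893-19146971 and Mir221 at chrX:19146294-19146388, with 504 bases between them and with Mir222 upstream. No other annotated gene overlapped this span in GENCODE M21, and the nearest one, the non-coding transcript Gm14636, lay 10010 bases upstream on the same strand. The hairpins follow with the arms in capitals, 5p before 3p for Mir221 and the 3p arm for Mir222, since the arms of Mir221 are compared here.
Mir221: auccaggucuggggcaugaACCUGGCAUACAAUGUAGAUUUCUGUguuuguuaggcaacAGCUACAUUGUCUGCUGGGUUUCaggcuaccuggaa
Mir222: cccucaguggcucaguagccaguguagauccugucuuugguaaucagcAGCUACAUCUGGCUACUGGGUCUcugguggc

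The shared seed is complementary to ATGTAGC on the sense strand of a messenger RNA. Matches in both classical targets are shown with the 7 matching bases in capitals, from the longest annotated 3′ UTR of each gene (GENCODE M21, GRCm38). The first lies at chr6:134924420-134924441, plus strand, and the others at chr5:75654981-75655002 and chr5:75656512-75656533, plus strand.
Cdkn1b: aaaagcattggATGTAGCattg
Kit, upstream match: atgggagatatATGTAGCaaga
Kit, downstream match: taaatattgaaATGTAGCaata

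Each of these 3 matches is followed by an A, which extends it to the 8 bases ATGTAGCA. Of 20975 genes with an annotated 3′ UTR, 9.44% held the 7-base match and 3.49% the 8-base match in their longest one. No messenger RNA was measured in these libraries, so the matches describe sequence only.

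The deposited values were read as log2 of an adjusted count plus 1, and no label states the adjustment. As inferred from the values, it brought libraries to a common size, and the reads behind them were recovered by inverting it. Its library factors are not in proportion to total reads, at 0.322 in control replicate 1 and 0.369 in control replicate 2. Recovered totals were 799076, 761762 and 613476 reads in palmitic acid replicates 1, 2 and 3 and 95300, 657965 and 252435 reads in control replicates 1, 2 and 3. miR-122-5p with miR-122b-3p, which share a hairpin locus and mark hepatocytes, took 11.7% to 15.3% of palmitic acid reads and 69.2% to 87.7% of control reads. Reads left for all other miRNAs numbered 534429 to 676849 with palmitic acid and 29365 to 80812 in controls. A level scaled to the total reads of a library therefore depends on whether miR-122 is counted, and the members and the cell type markers are given both ways. Intervals and limits describe counting error and nothing else, because PCR copies a molecule into many reads. For a count of 0, the limit given throughout is that of 3 reads.

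miR-221-3p was the most abundant member in palmitic acid vesicles, and its level in every palmitic acid library lay above every control library on the deposited scale. Deposited as log2 values, it stood at 8.22, 8.57 and 8.66 in palmitic acid replicates 1, 2 and 3, against 3.43, 7.21 and 7.01 in control replicates 1, 2 and 3. The palmitic acid libraries lay close together, while control replicate 1 stood far below the other two controls. These values rested on 607, 1084 and 679 reads with palmitic acid and on 3, 54 and 59 reads in controls. The difference was 2.60 on the log2 scale (SE 0.98, 95% interval 0.33 to 4.87), with a limma adjusted p of 0.0519, just outside the threshold of 0.05. It ranked 74 by size among the 181 tested miRNAs, of which 56.4% passed in either direction.

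Control replicate 1 carried much of this difference and of its spread. Without it the log2 difference of miR-221-3p was 1.37 (SE 0.35) and passed, with a limma adjusted p of 0.0166, where the adjusted p ran from 0.00638 to 0.595 over 16 alternative settings. Its value in that library lay 3.68 below the mean of control replicates 2 and 3 on the log2 scale, the 8th lowest gap of 181 tested miRNAs, whose median gap was -0.01. miR-222-3p in the same library lay 0.25 above the mean of the others. The low value of miR-221-3p rests on 3 reads in the shallowest library, and the exact 95% Poisson interval of its level there ran from 6.49 to 92.0 RPM (reads scaled to a library of 1000000 recovered miRNA reads). This overlapped the interval of control replicate 2 (61.7 to 107 RPM) and lay below that of control replicate 3 (178 to 301 RPM). On reads other than miR-122 it ran from 21.1 to 299 RPM. There it lay below both control replicate 2 (502 to 872 RPM) and control replicate 3 (853 to 1446 RPM).

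miR-222-3p had a smaller difference that did not pass. Its deposited log2 values were 8.03, 7.35 and 6.59 in palmitic acid replicates 1, 2 and 3, against 6.36, 6.00 and 6.22 in control replicates 1, 2 and 3. Here the controls lay close together and the palmitic acid libraries were spread, with the lowest of them just above the highest control. The reads were 531, 463 and 161 with palmitic acid and 26, 23 and 34 in controls. The log2 difference was 1.13, with an SE of 0.59 and a 95% interval of -0.22 to 2.48. Its limma adjusted p was 0.128, and it ranked 103 of 181 by size. The interval includes both no difference and a difference as large as the median of the tested miRNAs, 1.94.

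miR-221-5p, the arm of the hairpin that is seldom loaded as a guide, was found in palmitic acid libraries alone. Its reads were 32, 89 and 37 in palmitic acid replicates 1, 2 and 3, and 0 in each of the 3 control libraries. The deposited log2 values were 4.05, 5.01 and 4.52 with palmitic acid, and the adjustment set values of 0.42, 0.36 and 0.25 for the controls without a read. Palmitic acid replicate 2 was highest, and the 3 libraries lay within 1 unit of each other on the log2 scale. The fitted difference was 4.19 (SE 0.30, limma adjusted p = 2.0e-05), but its size, SE and p depend on the value given to 0 reads. The filter asks for an adjusted count of 10 in 3 libraries, which a miRNA with no control read can meet in palmitic acid libraries alone, so the direction of this call was given in advance. If the controls together are allowed 3 reads, miR-221-5p was at least 9.22-fold higher by the library factors of the deposited scale. The same bound was at least 24.4-fold on all reads, from 72.7 RPM over the palmitic acid libraries, and at least 4.55-fold on reads other than miR-122. These bounds pool the libraries of each group and leave out the spread between libraries. In RPM of reads other than miR-122, control replicates 1 and 3 allow up to 102 and 57.0 RPM. Both limits exceed palmitic acid replicate 1 (47.3 RPM), whereas that of control replicate 2 (37.1 RPM) does not.

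**Figure D1:**
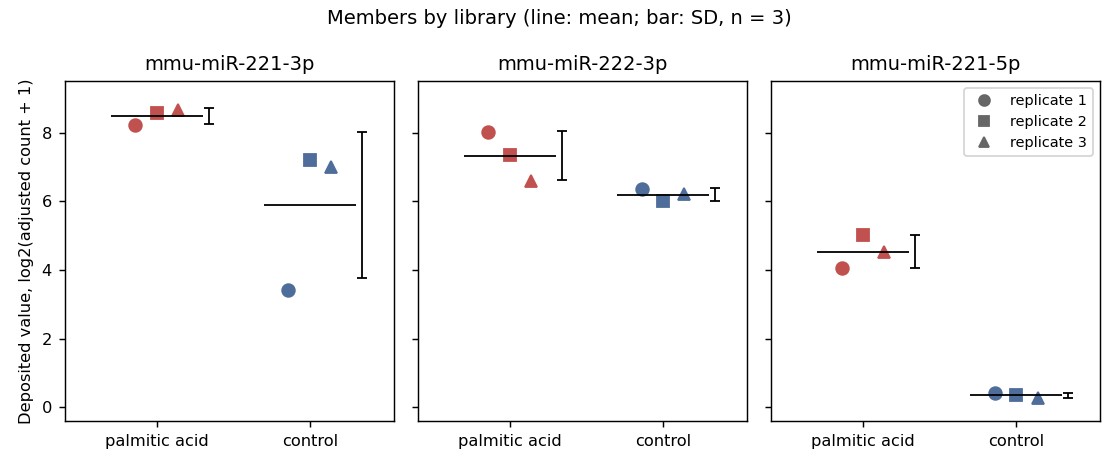
Deposited log2(adjusted count + 1) of the 3 members in each library, palmitic acid left of control, with the mean (line) and SD (bar, n = 3). Control replicate 1 of miR-221-3p stands at 3.43, below 7.21 and 7.01 in the other controls, and the control values of miR-221-5p (0.25 to 0.42) rest on no reads.

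In RPM of all recovered miRNA reads, both guides had higher means with palmitic acid. miR-221-3p stood at 759.6, 1423 and 1107 RPM in palmitic acid replicates 1, 2 and 3, against 31.5, 82.1 and 234 RPM in control replicates 1, 2 and 3. The groups did not overlap, at 1096 ± 332 RPM with palmitic acid and 116 ± 105 RPM in controls (SD, n = 3 each), a 9.47-fold ratio of means. An exact permutation test of these 6 values, two-sided, returned 0.1, below which p cannot go with groups of 3. With library totals as the scale, the median log2 difference of the 181 tested miRNAs was 2.91, and 95 of 103 calls were higher. The share of miRNAs whose groups did not overlap was not computed on this scale. miR-222-3p stood at 665, 608 and 262 RPM in palmitic acid replicates and at 273, 35.0 and 135 RPM in control replicates. Control replicate 1 exceeded palmitic acid replicate 3, so the groups overlapped, at 512 ± 218 RPM with palmitic acid and 147 ± 119 RPM in controls (SD, n = 3 each, exact permutation p = 0.2). miR-221-5p stood at 40.0, 117 and 60.3 RPM in palmitic acid replicates 1, 2 and 3 and at 0 in the controls. A count of 0 there allows up to 31.5 RPM in control replicate 1, 4.56 RPM in replicate 2 and 11.9 RPM in replicate 3, all below the lowest palmitic acid library.

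In RPM of reads other than miR-122, the difference of miR-221-3p was smaller and that of miR-222-3p was near 0. miR-221-3p stood at 897, 1612 and 1271 RPM in palmitic acid replicates 1, 2 and 3, against 102, 668 and 1121 RPM in control replicates 1, 2 and 3. Control replicate 3 exceeded palmitic acid replicate 1, so the groups overlapped, at 1259.8 ± 358 RPM with palmitic acid and 630.5 ± 511 RPM in controls (SD, n = 3 each, exact permutation p = 0.2). miR-222-3p averaged 591 ± 256 RPM with palmitic acid and 605 ± 302 RPM in controls (SD, n = 3 each, exact permutation p = 1). miR-221-5p stood at 47.3, 132 and 69.2 RPM in palmitic acid replicates 1, 2 and 3, against 0 in the controls, which allows up to 102 RPM in control replicate 1, 37.1 RPM in replicate 2 and 57.0 RPM in replicate 3. The limit of control replicate 1 exceeds palmitic acid replicates 1 and 3, and that of control replicate 3 exceeds palmitic acid replicate 1, so a lower level in those controls was not detectable at this depth on this denominator. The guides together, which carry 1 seed, stood at 1851 ± 393 RPM with palmitic acid and 1236 ± 460 RPM in controls on this denominator (exact permutation p = 0.3). On all reads the sum was 1608 ± 367 RPM with palmitic acid and 263 ± 131 RPM in controls (SD, n = 3 each, exact permutation p = 0.1). The share of miR-122 differed between the groups beside these levels, and leaving it out of the totals narrowed the difference of both guides.

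**Figure D2:**
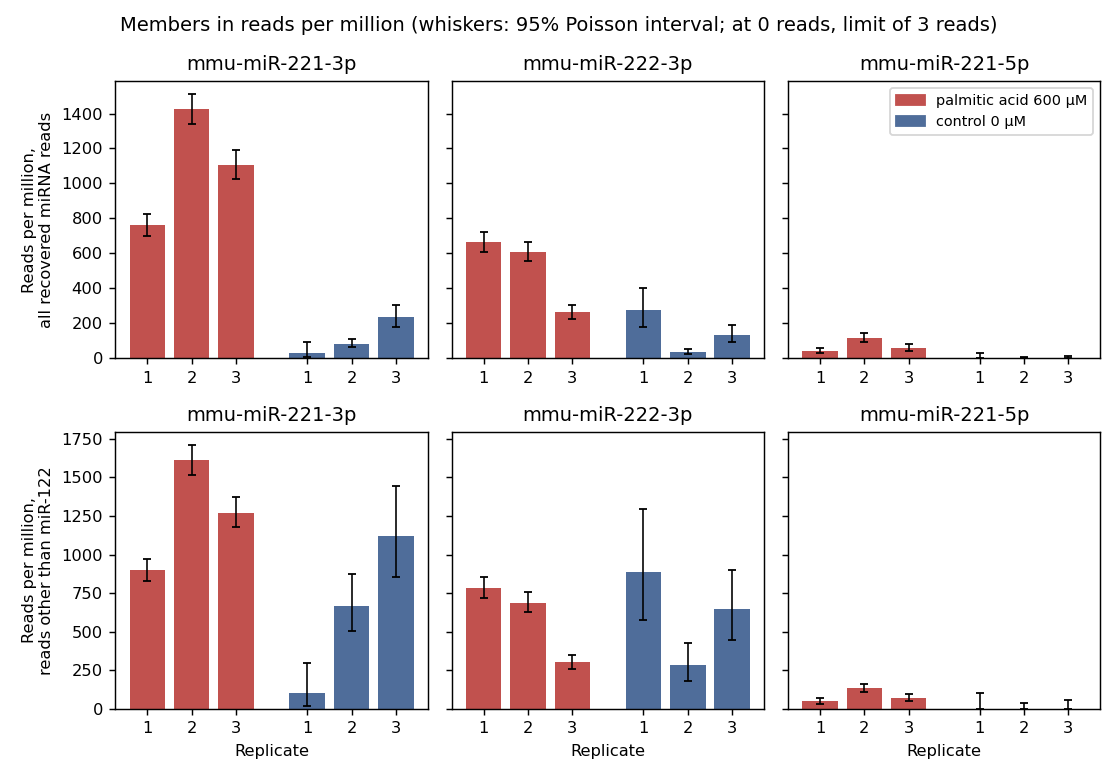
RPM of each member by library, on all recovered miRNA reads (top) and on reads other than miR-122 (bottom), with exact 95% Poisson intervals (at 0 reads, the limit of 3 reads) as whiskers, palmitic acid left of control. On all reads every palmitic acid library of miR-221-3p lies above every control, whereas on the lower row control replicate 3 (1121 RPM) lies above palmitic acid replicate 1 (897 RPM), and miR-222-3p overlaps in both rows.

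Ranked by reads within a library, miR-221-3p was 49th, 38th and 39th in palmitic acid replicates 1, 2 and 3, among 610, 640 and 484 miRNAs with a read. In controls it was 154th, 53rd and 55th, among 238, 243 and 242, and in control replicate 1 it shared its count of 3 with other miRNAs. miR-222-3p ranked 53rd, 63rd and 79th with palmitic acid and 79th, 76th and 70th in controls. miR-221-5p ranked 169th, 130th and 140th with palmitic acid. Reads count molecules of similar length here, but the ligation steps of a small RNA library favour some sequences, so the order of different miRNAs is an order of reads. In 3 of 3 palmitic acid libraries the order was miR-221-3p, miR-222-3p, miR-221-5p, and in control replicate 1 the guides stood the other way round.

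The balance of the guides differed between libraries of the same group. miR-221-3p made up 53.3% (95% Clopper-Pearson interval 50.4 to 56.3) of the reads of both guides in palmitic acid replicate 1, 70.1% (67.7 to 72.3) in replicate 2 and 80.8% (78.0 to 83.4) in replicate 3. In controls it made up 10.3% (2.19 to 27.4) in replicate 1, 70.1% (58.6 to 80.0) in replicate 2 and 63.4% (52.8 to 73.2) in replicate 3. The intervals of the 3 palmitic acid libraries did not overlap each other, so they differed by more than counting error. The log2 ratio of miR-221-3p over miR-222-3p was 1.16 ± 0.94 with palmitic acid and -0.31 ± 2.27 in controls (SD, n = 3 each), with 0.5 reads added to each count. The difference of 1.47 gave an exact permutation p of 0.4 and became 0.16 without control replicate 1.

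Between the arms of miR-221, the 3p guide dominated in every palmitic acid library. miR-221-5p was 5.01% (95% Clopper-Pearson interval 3.45 to 6.996) of the reads of both arms in palmitic acid replicate 1, 7.59% (6.14 to 9.25) in replicate 2 and 5.17% (3.66 to 7.05) in replicate 3. In controls it was 0 of 3, 0 of 54 and 0 of 59 reads in replicates 1, 2 and 3, which by the limit of 3 reads allows a share of up to 5.56% in replicate 2 and 5.08% in replicate 3 and sets none in replicate 1. The Clopper-Pearson upper bounds of these controls, comparable with the intervals of the palmitic acid libraries, are 70.8%, 6.603% and 6.06% in replicates 1, 2 and 3. Over the group, 158 of 2528 reads with palmitic acid (6.25%) were of the 5p arm, against 0 of 116 in controls, which allows up to 2.59% by the limit of 3 reads and 3.13% by the Clopper-Pearson bound, both over pooled libraries. The bounds of single controls reach the shares of palmitic acid replicates 1 and 3, so a lower share there was not detectable at this depth. The log2 ratio of miR-221-5p over miR-221-3p was -4.00 ± 0.35 with palmitic acid and -5.49 ± 2.32 in controls (SD, n = 3 each, exact permutation p = 0.4), and each control ratio is set by the 0.5 reads added to 0. In a limma fit over the 24 hairpins with both arms at a mean adjusted count of at least 10, the difference was 1.49 (SE 1.18, adjusted p = 0.275), where 37.5% of hairpins passed in either direction. With 1 read added in place of 0.5, the difference was 0.58 (exact permutation p = 0.7). Without control replicate 1 it was 2.83 and passed in the limma fit (adjusted p = 0.00789), but both remaining controls have 0 reads of miR-221-5p, so their ratios and their small spread are set by the 0.5 reads added, and no difference between the arms is read from that call.

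**Figure D3:**
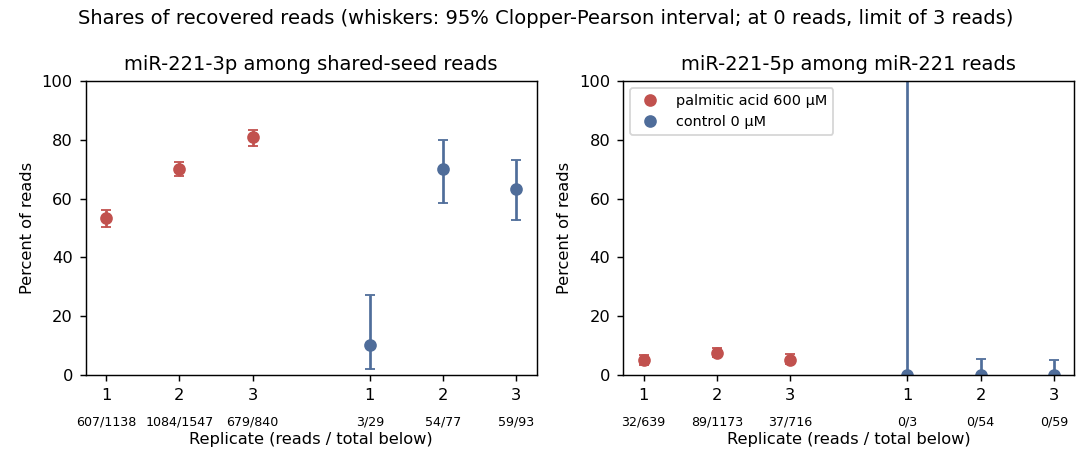
Percent of reads in each library, palmitic acid left of control, with 95% Clopper-Pearson intervals (at 0 reads, the limit of 3 reads) and the read numbers below; left, miR-221-3p among the reads of miR-221-3p and miR-222-3p; right, miR-221-5p among the reads of both miR-221 arms. Control replicate 1 is low on the left (10.3%) from 29 reads, and the palmitic acid libraries on the right lie between 5.01% and 7.59% beside controls at 0.

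The other arm of miR-222 and the remaining carrier of the seed were rare. miR-222-5p had 16, 1 and 3 reads in palmitic acid replicates 1, 2 and 3 and 0, 1 and 0 reads in control replicates 1, 2 and 3, and did not reach the filter on low values. miR-1928 was listed at 0 in each of the 6 libraries, so no read of it was recovered. Among the 1677 of 1976 names with a sequence to search, the reads with this seed were therefore those of miR-221-3p and miR-222-3p. Rows without a sequence were not searched for it.

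Of the 3 members, 1 (miR-221-5p) passed as higher in palmitic acid vesicles and 0 as lower, beside 42% and 14.4% of the 181 tested miRNAs. That member had no control read, so the direction of its call was given in advance. All 3 had groups that did not overlap and were higher with palmitic acid on the deposited scale, as had 48.6% of the tested miRNAs, and 68% had groups apart in either direction. The median log2 difference of the 181 tested miRNAs was 1.94, and it was 0.20 over all 1058 miRNAs with a value. Relative to that median, miR-221-5p stood at 2.25 (limma adjusted p = 5.2e-04), miR-221-3p at 0.66 (adjusted p = 0.595) and miR-222-3p at -0.81 (adjusted p = 0.280). With library totals as the scale, miR-221-3p stood at 3.61 and passed (adjusted p = 0.00884) and miR-222-3p at 2.09 (adjusted p = 0.102). With totals that leave out miR-122, miR-221-3p stood at 1.51 (adjusted p = 0.183) and miR-222-3p at -4.2e-04 (adjusted p = 0.9995, in a range of 0.0959 to 0.9995 over 16 alternatives). The direction of miR-222-3p therefore depended on the scale, whereas miR-221-3p stood above 0 in all 16 alternatives and passed in 6 of them.

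**Figure D4:**
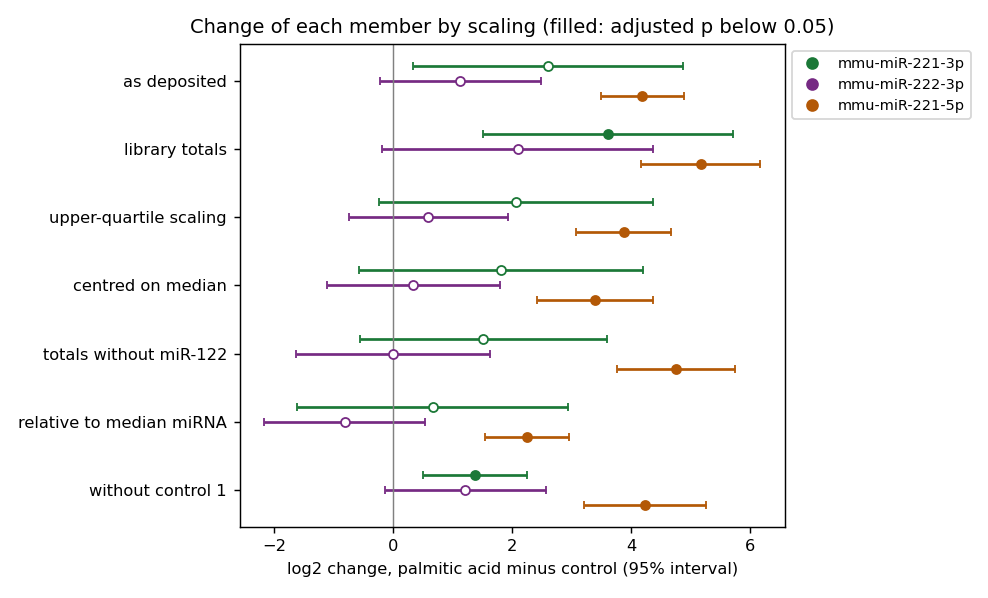
Log2 difference, palmitic acid minus control, of each member with its 95% interval under 6 scalings and without control replicate 1; filled points have a limma adjusted p below 0.05. miR-221-5p, which has no control read, is filled throughout, miR-221-3p with library totals (3.61) and without control replicate 1 (1.37), and miR-222-3p in no row.

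By the likeness of the 6 deposited values, each miRNA centred on its own mean, the guides were not among each other's nearest. Their root mean square distance was 1.602 on the log2 scale, below the median distance from either guide. It placed miR-222-3p 63rd among the neighbours of miR-221-3p, and miR-221-3p 79th among those of miR-222-3p. The distance includes the value of miR-221-3p in control replicate 1, which rests on 3 reads. The nearest to miR-221-3p were miR-151-5p (0.25), miR-149-5p (0.54), miR-1843b-5p (0.55) and miR-1843a-5p (0.56), where the median distance was 1.95. These 4 had 0, 0, 0 and 1 reads in control replicate 1, beside 4 to 20 reads in control replicates 2 and 3, so they share the low value of that library. miR-1843b-5p rose by 3.53 (SE 1.20, limma adjusted p = 0.0355), and the other 3 did not pass, at 2.30 (miR-151-5p), 1.997 (miR-149-5p) and 2.32 (miR-1843a-5p). The nearest to miR-222-3p were miR-215-5p (0.45), miR-27a-3p (0.53), miR-574-5p (0.54) and miR-24-3p (0.56), where the median distance was 1.68. These 4 differed by 1.08, 0.69, 1.05 and 0.87 and none passed. The miR-1843 pair has similar names and may share reads, so its members may not be separate neighbours.

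**Figure D5:**
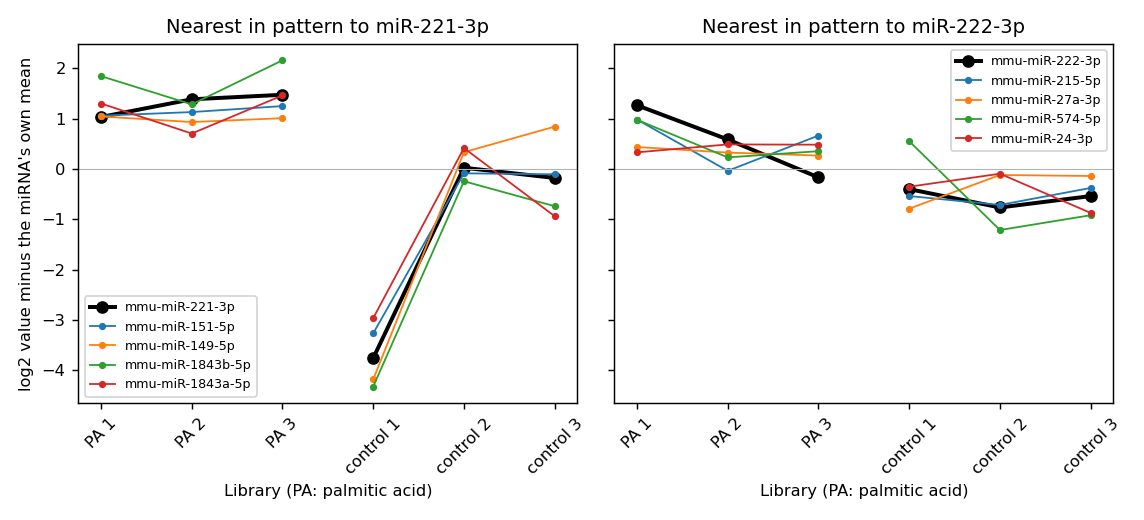
Deposited log2 values minus each miRNA's own mean in the 6 libraries (PA, palmitic acid, left of control) for miR-221-3p and miR-222-3p (black) and the 4 tested miRNAs nearest to each. The neighbours of miR-221-3p share its low value in control replicate 1, while no neighbour of miR-222-3p falls as low in that library.

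Among miRNAs of related roles, growth-linked ones, such as those of the miR-17 to miR-92 cluster, were higher or did not pass. Of 14 tested (17 listed), 7 were higher, 0 lower and 7 in neither direction, with a median log2 difference of 4.18. Over all 181 tested miRNAs, 42% were higher and 14.4% lower, with a median of 1.94. The 14 include 3 with no control read, which could be tested in 1 direction alone. miR-21a-5p, a growth and injury miRNA, was higher by 3.89 (SE 0.47, limma adjusted p = 2.4e-04), while miR-92a-3p (0.55), miR-24-3p (0.87) and miR-25-3p (-1.14) did not pass. Of 11 tested miRNAs linked to liver injury and fibrosis, 6 were higher, 1 (miR-122-5p) lower and 4 neither, with a median of 3.32, and 1 had no control read. The 11 include miR-199a-3p and miR-199b-3p, which have similar names and may share reads. miR-29a-3p, which targets collagen transcripts, was higher by 3.69 (SE 0.82, adjusted p = 0.00542). Of 16 tested endothelium-linked miRNAs, 7 were higher, 2 lower and 7 neither, with a median of 1.75, and 2 had no control read. Counts of 7 of 14, 6 of 11 and 7 of 16 higher stand beside 42% of all tested miRNAs, and nothing particular to these lists is read from them. Of 146 other rows encoded on chromosome X alone, 9 were tested, of which 4 were higher, 1 lower and 4 neither, with a median of 2.49, and 77 had no read in any library. miR-98-5p of that chromosome, a let-7 family guide, was higher by 5.62 (SE 0.998, adjusted p = 0.00182), as was miR-374b-5p, by 5.97 (SE 0.77, adjusted p = 3.3e-04). miR-361-5p stood at 2.49 (adjusted p = 0.155) and miR-361-3p at -1.01 (adjusted p = 0.227).

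miR-221 and miR-222 are also expressed in endothelial, stellate and immune cells, so markers of these were read beside the members, on all reads and on reads other than miR-122. The 3 endothelial markers summed to 3915 to 5154 RPM with palmitic acid and 906 to 3557 RPM in controls on all reads. On reads other than miR-122 the order was the reverse, at 4621 to 5839 RPM with palmitic acid and 7375 to 17064 RPM in controls. Of the 3, 2 were tested and 0 passed, with log2 differences of 0.07 for miR-126a-3p and -0.18 for miR-126b-5p.

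The 5 stellate cell and fibroblast markers overlapped between the groups on all reads, at 520 to 642 RPM with palmitic acid and 167 to 2476 RPM in controls. On reads other than miR-122 they lay apart and lower with palmitic acid, at 589 to 758 RPM, against 1361 to 8037 RPM in controls. The 3 tested did not pass, at -0.89 (miR-143-3p), -1.63 (miR-199a-3p) and -1.50 (miR-199b-3p). The miR-199 pair has similar names and may share reads, so its members may not be separate markers. The 6 immune and Kupffer cell markers summed to 202 to 398 RPM with palmitic acid and 206 to 1616 RPM in controls on all reads. On reads other than miR-122 they too lay apart and lower, at 232 to 451 RPM with palmitic acid and 988 to 5244 RPM in controls. Of 2 tested, miR-146a-5p was lower (-2.13), beside 14.4% of all tested miRNAs, and miR-155-5p did not pass (2.23). On the deposited scale, 68% of the tested miRNAs had groups apart in either direction. That share was not computed for RPM on either denominator, so nothing particular to a marker list is read from groups that lie apart.

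The sum of the 8 epithelial markers was higher with palmitic acid on both denominators, at 5638 to 15161 RPM with palmitic acid and 385 to 1145 RPM in controls on all reads. On reads other than miR-122 they summed to 6472 to 17175 RPM with palmitic acid and 3131 to 5492 RPM in controls. Of the 8, only 3 were tested, and the rows of miR-200a, miR-200b, miR-200c, miR-141 and miR-429 did not reach the filter. Of the 3, miR-182-5p (2.79) and miR-96-5p (5.40) were higher, beside 42% of all tested miRNAs, and miR-183-5p (1.51) did not pass. miR-182-5p was the most abundant of them, at a deposited log2 mean of 11.51 with palmitic acid, against 7.15 for miR-183-5p and 5.76 for miR-96-5p. No control library held a read of miR-96-5p, which could thus be called in 1 direction alone.

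Striated muscle markers summed to 26.3 to 50.1 RPM with palmitic acid and 95.7 to 2361 RPM in controls on all reads, and to 29.7 to 59.1 RPM with palmitic acid and 779.6 to 7662 RPM in controls without miR-122. Erythroid markers summed to 24.5 to 160.2 RPM with palmitic acid and 38.0 to 5698 RPM in controls on all reads, and to 28.1 to 181 RPM with palmitic acid and 309 to 18491 RPM in controls without miR-122. Of these, miR-133a-3p and miR-144-3p had no read in any library, 1 of 1 tested muscle marker and 1 of 2 tested erythroid markers were lower, and 0 were higher. Hepatocyte markers summed to 302920 to 462615 RPM with palmitic acid and 637471 to 825380 RPM in controls on all reads. On reads other than miR-122, the sum leaves out miR-122-5p too. It stood at 236077 to 407751 RPM with palmitic acid and 227492 to 674714 RPM in controls. Of 6 tested hepatocyte markers, 1 was higher (miR-192-5p), 1 lower (miR-122-5p) and 4 neither. These counts stand beside 42% higher and 14.4% lower of all 181 tested miRNAs, and nothing particular to these few markers is read from them. The part of other cell types in the values of miR-221 and miR-222 was not tested.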

How the data were processed

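Vesicle small RNA was made into 6 libraries with a NEBNext small RNA kit, per the labels' protocols. Bowtie2 and bedtools are the tools, and GRCm38 (mm10) the build, that the submitters' processing notes list. The miRNA annotation and the way of counting are not stated there. The deposited values are log2(adjusted count + 1), read from the values, and no label states the adjustment. It was matched by a negative binomial quantile adjustment (fitted dispersion 1.39, median absolute difference 1.4e-04), in which libraries not analysed here may have taken part, and inverted to recover reads. Of 1936 values with steps of at least 0.02, 99.9% came out whole within 0.0015 on the log2 scale. The mean of each miRNA was chosen to bring its values nearest to whole reads, so this share is partly built in. Values with finer steps, such as those of miR-122, were not part of it, so it does not check the totals. The reads of the 3 members were unambiguous. The recovery and the fit were tested on simulated data. Depth was 95300 to 799076 reads per library.

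The deposited values of the 181 miRNAs that reached an adjusted count of 10 in 3 or more libraries were fitted in R 4.3.3 by limma 3.58.1 (mean-variance trend), with group as the term and Benjamini-Hochberg adjustment at 0.05, two-sided. Single values were compared by exact two-sided permutation tests (scipy 1.17.1). A fold change of low miRNAs on this scale depends on the 1 added to each adjusted count and on the value given to 0 reads. Named miRNAs were the members, seed-sharing rows, the other miR-222 arm, the 4 nearest in pattern to each guide, and examples from each list, at most 4, taken by abundance. Members and lists were chosen with earlier results of these data known. Sequences are from RefSeq, where 1677 of 1976 names matched, and GENCODE M21.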

Additional observations from a re-analysis of the deposited data

How the results depend on the processing

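The count of changed miRNAs was 102, and 83 to 117 with single libraries left out. Of these calls, 74.5% were higher as deposited, 92.2% with library totals, 56.4% with totals that leave out miR-122, 44.9% relative to the median miRNA, 61.9% with libraries centred and 59.5% without the filter. The call of miR-221-5p held in all 16 alternatives, with log2 differences from 2.25 to 5.16. No control library held a read of it, so its size and p depend on the value given to 0 reads in each of them. The 16 calls are therefore not read as support. The log2 difference of miR-221-3p, which did not pass as deposited, passed with a pseudocount of 5 (2.44, adjusted p = 0.0410), with library totals (3.61) and under the replicate block (2.60, adjusted p = 0.00638). With single libraries left out it ran from 1.37 to 3.26 and passed without control replicate 1, 2 or 3 (adjusted p = 0.0166, 0.0342 and 0.0344). Over all alternatives its adjusted p ran from 0.00638 to 0.595. miR-222-3p passed in 0 of 16 alternatives. It turned to -0.81 relative to the median miRNA and to -4.2e-04 with totals that leave out miR-122 (adjusted p = 0.280 and 0.9995), and the cause was not tested. On reads other than miR-122, the RPM difference was 629 for miR-221-3p, against 981 on all reads, and -13.9 for miR-222-3p, against 364. With single libraries left out, the log2 ratio difference of the guides ran from 0.16 to 2.23, and that of the miR-221 arms from 0.79 to 2.83. The arm difference of 1.49 became 0.58 with 1 read added in place of 0.5.

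Same-numbered libraries of the groups deviated together with correlations of 0.21, 0.15 and 0.04, and differently numbered ones with correlations from -0.18 to 0.06. The labels do not say if replicate numbers pair the samples, and pairing was not tested. The replicate block gave 111 calls in place of 102. Of the members it changed the call of miR-221-3p alone. Control libraries of 29365 to 80812 reads other than miR-122 limit what can be said of members with few reads there.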
